A study of Mus musculus with 6 samples.

Results

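The Fc gamma receptors are the receptors through which macrophages bind the constant region of IgG. The 5 mouse genes Fcgr1, Fcgr3, Fcgr4, Fcgr2b and Fcgrt were chosen by name, from the symbols matched to the Ensembl identifiers of an RNA-seq table of 23504 genes. All 5 had a row, and all 5 reached the mean of 1 FPKM (fragments scaled to gene length and to library depth) over the 6 libraries that was required for testing, as 10965 genes did. The libraries came from BMMs (bone marrow–derived macrophages, the precursor cells of osteoclasts) of C57BL/6 mice, which the study's methods describe as males of 6 to 8 weeks. The experiment asked how DASA-58, an activator of the glycolytic enzyme PKM2, changes the transcripts of these cells during osteoclast differentiation. Cells received DASA-58 (3 libraries) or an equal volume of its solvent DMSO (3 libraries), and RNA was taken after 3 days. The results of the study describe RANKL, the cytokine that drives osteoclast formation, in both groups, whereas the wording of its methods leaves RANKL in the DMSO group open. The methods also write DASA-48 where the labels have DASA-58, and no concentration is given for this experiment. Nothing in the labels or the methods states whether the libraries of a group came from separate mice or cultures, so the p-values measure the spread between these libraries, which may be technical.

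Fcgr1, Fcgr3 and Fcgr4 encode activating receptors, whose ligand-binding chains have no signaling motif of the activating kind and are carried by the common gamma chain, encoded by Fcer1g. IgG complexes cluster these receptors, Src family kinases phosphorylate the immunoreceptor tyrosine-based activation motif (ITAM) of the gamma chain, and Syk then binds and starts phagocytosis and cytokine release. Fcgr2b encodes the inhibitory receptor, whose own immunoreceptor tyrosine-based inhibitory motif (ITIM) recruits the phosphatase SHIP and damps the same signal. Fcgrt encodes the heavy chain of the neonatal Fc receptor FcRn, which pairs with beta-2-microglobulin in endosomes and returns IgG to the cell surface. In bone, receptors that use the gamma chain supply the costimulatory signal that RANKL needs for osteoclast formation, and both activating and inhibitory Fc gamma receptors are found on osteoclast precursors.

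The motifs that separate the activating from the inhibitory arm are shown as coding bases of the transcripts of GENCODE mouse release 21 (build GRCm38), with the codons of the motif in capitals. The ITIM lies at residues 317 to 322 of the 340 residues of Fcgr2b, in exon 8, at chr1:170961071-170961088 on the minus strand. The ITAM lies at residues 65 to 79 of the 86 residues of Fcer1g and is split by an intron between exons 4 and 5, at chr1:171229889-171230072 on the minus strand.
Fcgr2b ITIM: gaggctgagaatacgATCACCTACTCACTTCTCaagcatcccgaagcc
Fcer1g ITAM: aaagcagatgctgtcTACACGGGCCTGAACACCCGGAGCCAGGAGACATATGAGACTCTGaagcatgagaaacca
A search for the letters of an ITAM matched no translated transcript of the 5 receptors. The shorter ITIM pattern also matched by its letters in the longest reading frames of Fcgr1 (3 matches), Fcgr4 (1 match) and Fcgrt (1 match), and 0 times in Fcgr3, and such a match says nothing of a working motif.

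Fcgr2b (chr1:170958617-170976547, minus strand), Fcgr4 (chr1:171018920-171029761, plus strand) and Fcgr3 (chr1:171051174-171064935, minus strand) lie beside each other on mouse chromosome 1, with Fcer1g further along at chr1:171229572-171234365. Fcgr1 lies apart at chr3:96282909-96293969 and Fcgrt at chr7:45092990-45103851, both on the minus strand, in the coordinates of GRCm38. Fcgr3 and Fcgr2b are near copies in the part that binds IgG. Their longest reading frames were 86.7% identical over 782 aligned bases, against 59.7% to 68.6% for every other pair of the 5 genes. The longest identical run, 129 bases, is printed in full because fragments that fall wholly inside it cannot be assigned to either gene by sequence. It spans an intron in both genes, from chr1:171054167-171057792 in Fcgr3 and chr1:170966674-170968081 in Fcgr2b.
Fcgr3 and Fcgr2b shared run: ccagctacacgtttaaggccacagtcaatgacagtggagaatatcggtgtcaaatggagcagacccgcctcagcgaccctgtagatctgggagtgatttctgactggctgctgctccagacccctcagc
Of the distinct windows of 50 bases in the transcripts of Fcgr3, 166 of 1733 (9.58%) also occurred in Fcgr2b, and of the windows of 100 bases 44 of 1733 (2.54%) did. The remaining members shared 0 windows of either length with another member. Fcgr2b, whose level is the denominator of the ratios to the inhibitory receptor, had 395 of 5685 windows of 50 bases (6.95%) in common with any other gene, on either strand, and 251 of 5843 windows of 100 bases (4.30%). How the counting treated fragments that match both genes is not given in the sources used here, so the values of Fcgr3 and Fcgr2b carry that uncertainty, and its part in the results was not tested. An exon of Fcgr2b also overlaps the antisense gene Gm38204, and the use of strand is not given.

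Fcgr3, the low-affinity activating receptor, rose with DASA-58. Its level was 122, 132 and 123 FPKM in the 3 DMSO libraries and 181, 178 and 186 FPKM in the 3 DASA-58 libraries. The lowest library with DASA-58 stood far above the highest with DMSO, so the groups did not overlap. The mean went from 126 ± 5.43 to 182 ± 4.53 FPKM (SD, n = 3), which is 145% of the DMSO level. On the scale of log2(FPKM + 1) the difference was 0.53 (SE 0.037, 95% interval 0.44 to 0.61), with an adjusted p of 0.00021 in limma with Benjamini-Hochberg adjustment over all genes tested. Behind these values stood 3881 to 4317 fragments per library with DMSO and 5606 to 6141 with DASA-58. Of the 10965 genes tested, 56 had a larger positive difference and 35 a smaller p. By the same test 465 genes were higher (4.24%) and 798 were lower (7.28%), and 1 of the 5 members was among the higher genes and 0 among the lower. All 5 had a positive difference with an unadjusted p under 0.05 in limma. Of all 10965 tested genes, 2878 had a smaller p, in either direction, than Fcgrt, the member with the largest p. The fit with voom weights described for Fcgr1 called 3 of the 5 higher. Over the 9580 genes of that fit, 642 were higher and 1142 lower. The limma counts of 465 and 798 moved by more than 1.5 times with DMSO 1, DASA-58 1, DASA-58 2 or DASA-58 3 left out. They became 282, 273, 295 and 277 higher genes and 385, 417, 465 and 396 lower genes. Fcgr3 stayed past the threshold in each of those fits.

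**Figure D1:**
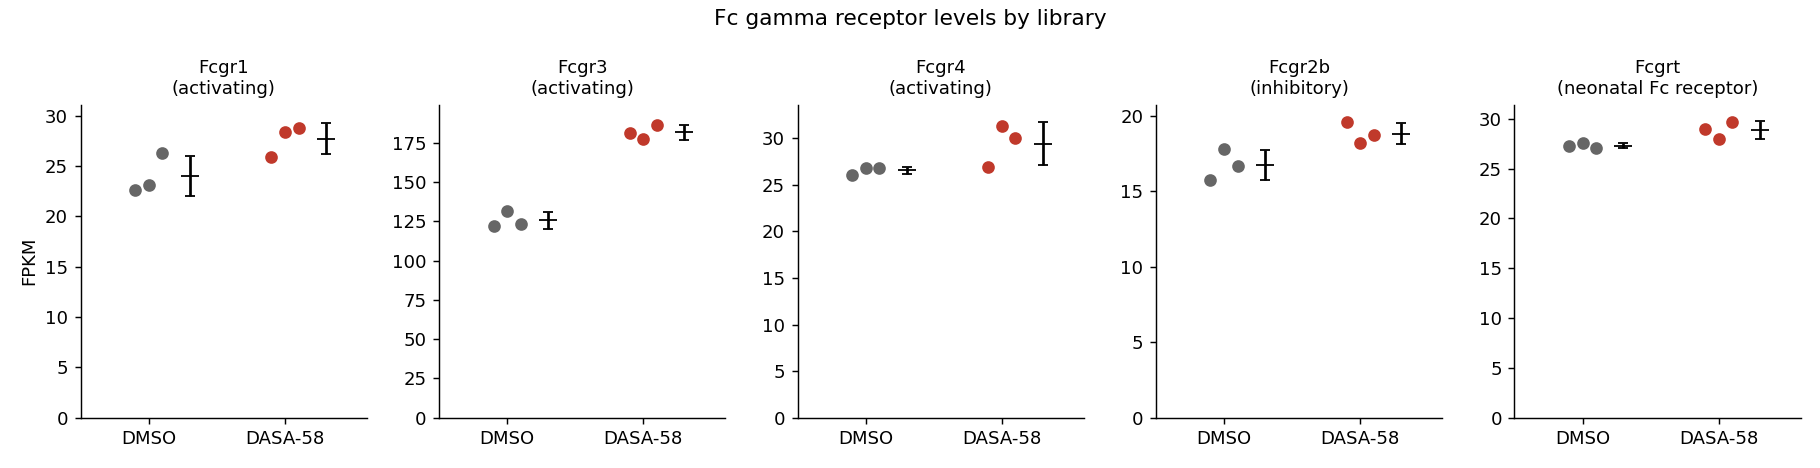
FPKM of each Fc gamma receptor (vertical axes, each with its own range from 0) in the 3 DMSO and 3 DASA-58 libraries, with points for libraries and bars for the mean and SD. Fcgr3 went from 126 to 182 FPKM with the groups far apart, while the groups of the other receptors overlapped or lay close together.

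The other 2 activating receptors did not pass the test. Fcgr1, the high-affinity receptor that binds single IgG molecules, measured 22.6, 23.2 and 26.3 FPKM with DMSO and 25.9, 28.4 and 28.8 FPKM with DASA-58. The groups overlapped, since the third DMSO library lay above the first DASA-58 library. The means were 24.0 ± 1.97 and 27.7 ± 1.55 FPKM (SD, n = 3), a log2 difference of 0.20 (95% interval 0.05 to 0.34), with an adjusted p of 0.084 (limma, Benjamini-Hochberg). Without DMSO 3 the difference was 0.26 with an adjusted p of 0.028, and a fit of recovered whole fragments with voom weights gave 0.21 with an adjusted p of 0.0071, so the call on Fcgr1 turned on the processing.

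Fcgr4, a receptor for the mouse subclasses IgG2a and IgG2b, measured 26.1, 26.8 and 26.8 FPKM with DMSO and 26.9, 31.3 and 30.1 FPKM with DASA-58. The groups did not overlap, but the first DASA-58 library stood level with the DMSO libraries and the other two lay above it. The means were 26.5 ± 0.398 and 29.4 ± 2.29 FPKM (SD, n = 3), a log2 difference of 0.14 (95% interval 0.02 to 0.27) and an adjusted p of 0.14 (limma, Benjamini-Hochberg). Without DASA-58 1 the difference was 0.20 with an adjusted p of 0.028. Fcgr4 had the fewest fragments of the 5 members, 601 to 716 per library.

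Fcgr2b, the inhibitory receptor, did not pass the test either. It measured 15.8, 17.8 and 16.7 FPKM with DMSO and 19.6, 18.2 and 18.7 FPKM with DASA-58. The second DMSO library and the second DASA-58 library lay close to each other, and the groups did not overlap. The means were 16.7 ± 1.01 and 18.8 ± 0.681 FPKM (SD, n = 3), 113% of the DMSO level, with a log2 difference of 0.16 (95% interval 0.05 to 0.28) and an adjusted p of 0.077 (limma, Benjamini-Hochberg). Without DMSO 2 the difference was 0.20 with an adjusted p of 0.044, and the fit of recovered fragments with voom weights gave 0.17 with an adjusted p of 0.0072.

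Fcgrt measured 27.2, 27.6 and 27.0 FPKM with DMSO and 29.0, 28.0 and 29.7 FPKM with DASA-58. It was the member with the narrowest spread in the DMSO group, and its groups lay side by side without overlap. The means were 27.3 ± 0.259 and 28.9 ± 0.887 FPKM (SD, n = 3), a log2 difference of 0.08 (95% interval 0.00 to 0.16) with an adjusted p of 0.17 (limma, Benjamini-Hochberg). Over the members, 4 of 5 had all DASA-58 libraries above all DMSO libraries, against 1298 of the tested genes (11.8%). No member had its groups apart in the lower direction, as 2369 tested genes (21.6%) did. All 5 differences were positive, against 4410 of the 10965 tested genes, and their median was 0.16 on the log2 scale against -0.03 over all tested genes. An exact two-sided permutation test of single members reached its smallest possible p of 0.10 for Fcgr3, Fcgr4, Fcgr2b and Fcgrt and gave 0.20 for Fcgr1 (n = 3 in each group).

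The chains with which these receptors work were also measured. Fcer1g, the gamma chain, had 440, 493 and 443 FPKM with DMSO and 492, 512 and 527 FPKM with DASA-58, and the groups overlapped. Its log2 difference was 0.15 (SE 0.048) with an adjusted p of 0.080 in limma with Benjamini-Hochberg adjustment, which became 0.014 without DMSO 2, 0.047 with a filter at a mean of 5 FPKM and 0.037 after quantile normalization. B2m, the light chain of FcRn and of the class I molecules, had means of 3071 and 3296 FPKM, a log2 difference of 0.10 and an adjusted p of 0.060 (limma, Benjamini-Hochberg), or 0.049 with the filter at 5 FPKM, and its groups did not overlap. Trim21, an intracellular receptor for IgG, had means of 8.90 and 9.06 FPKM, a log2 difference of 0.02 and an adjusted p of 0.79 (limma, Benjamini-Hochberg). By limma 0 of the 3 partner genes passed after adjustment and 2 (Fcer1g and B2m) had an unadjusted p under 0.05. Of the 10965 tested genes, 1771 had a smaller p, in either direction, than Fcer1g, the one of the 2 with the larger p. The fit with voom weights called those 2, and it called 642 of all its 9580 genes higher.

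**Figure D2:**
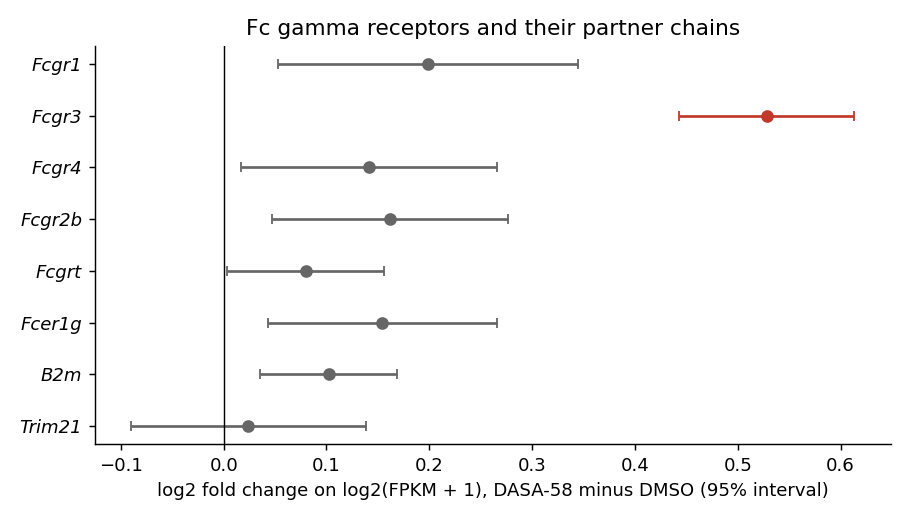
Log2 fold change on log2(FPKM + 1), DASA-58 minus DMSO (horizontal axis), of the 5 Fc gamma receptors and of Fcer1g, B2m and Trim21, with 95% intervals from limma. Fcgr3 (in red, the gene that passed the test) stands at 0.53 with an interval that does not meet those of the other genes, which are centred between 0.02 and 0.20.

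The comparison of activating with inhibitory receptors was made as a ratio within each library, which does not depend on scaling between libraries. The ratio of Fcgr3 to Fcgr2b, as a ratio of FPKM, was 7.73, 7.42 and 7.40 with DMSO and 9.25, 9.75 and 9.97 with DASA-58. Every DASA-58 library had a higher ratio than every DMSO library, with means of 7.52 ± 0.186 and 9.66 ± 0.368 (SD, n = 3). On log2(FPKM + 1) the ratio differed by 0.37, and the exact two-sided permutation test gave p = 0.10, the smallest that 3 against 3 libraries can give, or 0.30 after Benjamini-Hochberg adjustment over the 3 ratios.

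The ratio of Fcgr1 to Fcgr2b was 1.44, 1.30 and 1.58 with DMSO and 1.33, 1.56 and 1.54 with DASA-58, a log2 difference of 0.04 (exact permutation p = 0.80, adjusted p = 0.90). The ratio of Fcgr4 to Fcgr2b was 1.66, 1.51 and 1.61 with DMSO and 1.38, 1.72 and 1.61 with DASA-58, a log2 difference of -0.02 (exact permutation p = 0.90, adjusted p = 0.90). In both cases the groups were interleaved. With 1 library left out, the difference ranged from -0.03 to 0.11 for Fcgr1 and from -0.09 to 0.07 for Fcgr4, so no direction can be given for these ratios. That of Fcgr3 ranged from 0.34 to 0.40.

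**Figure D3:**
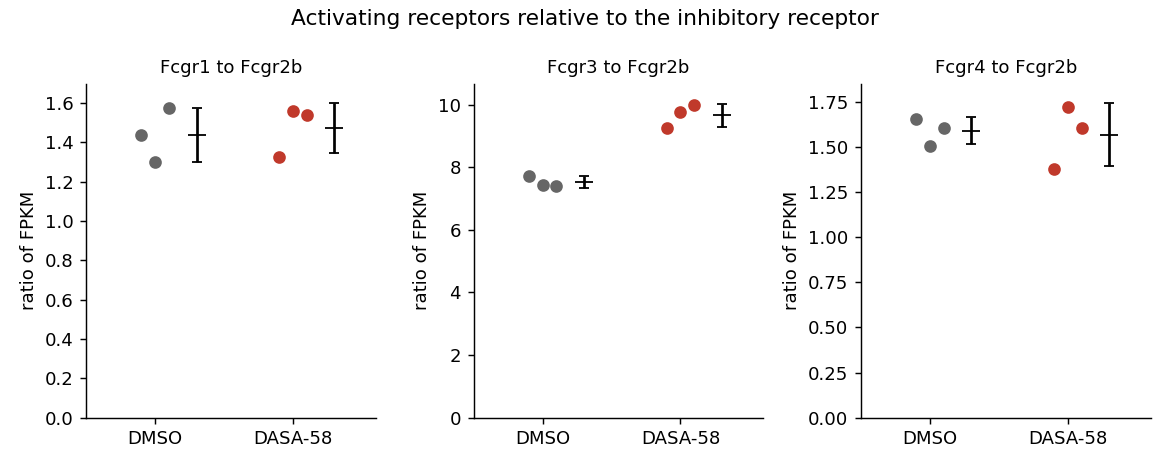
Ratio of the FPKM of each activating receptor to that of the inhibitory receptor Fcgr2b (vertical axes from 0) in the 3 DMSO and 3 DASA-58 libraries, with points for libraries and bars for the mean and SD. The ratio of Fcgr3 went from 7.52 to 9.66 without overlap, and those of Fcgr1 and Fcgr4 overlapped between the groups.

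The summed FPKM of the 3 activating receptors relative to Fcgr2b was 10.8, 10.2 and 10.6 with DMSO and 12.0, 13.0 and 13.1 with DASA-58. Fcgr3 made up most of this sum. Its share of the summed FPKM of Fcgr1, Fcgr2b, Fcgr3 and Fcgr4 was 65.4%, 66.1% and 63.9% with DMSO and 71.4%, 69.5% and 70.6% with DASA-58. The groups of this share did not overlap, with means of 65.1% ± 1.12 and 70.5% ± 0.971 (SD, n = 3).

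The difference of Fcgr3 was also larger than that of the other receptors and of its own partner chain. Its FPKM relative to Fcgr1 went from a mean of 5.26 to 6.57, relative to Fcgr4 from 4.74 to 6.20, and relative to Fcer1g from 0.274 ± 0.006 to 0.356 ± 0.0109 (SD, n = 3), each without overlap between the groups. These ratios describe the measured libraries and were not tested.

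Levels of different genes were compared per length, and for these genes the order depended on the length used. With the length of all annotated exons, as in the deposited FPKM, the order with DMSO was Fcgr3 (126 FPKM), Fcgrt (27.3), Fcgr4 (26.5), Fcgr1 (24.0) and Fcgr2b (16.7). Fcgr4 and Fcgr1 overlapped between libraries, and the remaining neighbours did not. With DASA-58 the order was Fcgr3 (182 FPKM), Fcgr4 (29.4), Fcgrt (28.9), Fcgr1 (27.7) and Fcgr2b (18.8), and the libraries of the 3 genes in the middle overlapped.

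Fcgr2b has 5790 bases of annotated exons, some of them from transcripts that retain introns, against 1736 for Fcgr3. With its longest coding transcript of 3544 bases, Fcgr2b would stand at 27.3 FPKM with DMSO. With the shortest transcript that holds the whole reading frame (1578 bases), it would stand at 61.4 FPKM, the second highest of the 5. The ratio of the Fcgr3 level to the Fcgr2b level with DMSO was accordingly 7.51, 5.93 or 2.64, and that of Fcgr1 to Fcgr2b was 1.44, 0.879 or 0.391. Whether Fcgr1 or Fcgr4 exceeds Fcgr2b in level therefore rests on the gene length used, whereas the difference of each gene between the groups does not.

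**Figure D4:**
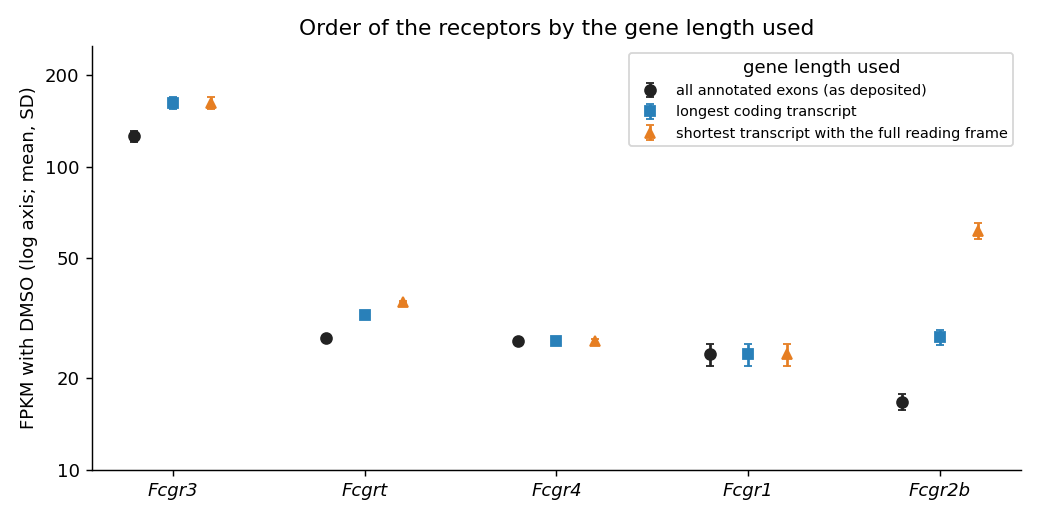
FPKM with DMSO (vertical log axis, mean and SD of 3 libraries) of the 5 receptors, computed with the length of all annotated exons, of the longest coding transcript, and of the shortest transcript with the full reading frame. Fcgr3 is highest throughout, while Fcgr2b goes from the lowest level, 16.7 FPKM, to the second highest, 61.4 FPKM.

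Because the libraries are bulk RNA, fewer cells of a type and less RNA per cell cannot be told apart. The markers of the labelled cell type were present, with means of 326 and 390 FPKM for Adgre1 (F4/80), 871 and 962 for Cd68 and 322 and 336 for Csf1r with DMSO and DASA-58. Of 10 macrophage markers 5 rose with DASA-58 (Adgre1, Cd68, Mertk, Mrc1 and Msr1), 2 fell (Cd14 and Cx3cr1) and 3 did not pass. Over all tested genes 4.24% were higher and 7.28% lower. The summed level of the 10 markers was 16548 to 17382 FPKM with DMSO and 17509 to 19818 with DASA-58. Most of that sum was Lyz2, at 14701 to 15513 FPKM with DMSO and 15447 to 17767 FPKM with DASA-58. Lyz2 did not pass the test (adjusted p = 0.11, limma, Benjamini-Hochberg) and its groups overlapped. Taken relative to each of the 10 markers, Fcgr3 was higher in every DASA-58 library than in any DMSO library for 7 of them, with mean ratios of FPKM from 0.385 to 0.466 for Adgre1, from 0.144 to 0.189 for Cd68 and from 0.391 to 0.541 for Csf1r. For the other 3, the markers that rose most, the groups overlapped, with mean ratios of 9.43 and 10.9 for Mertk, 1.87 and 2.07 for Mrc1 and 1.55 and 1.77 for Msr1. Relative to Cd68, the groups overlapped for Fcgr1, Fcgr4 and Fcgr2b, and for Fcgr2b the mean ratio was 0.0192 with DMSO and 0.0196 with DASA-58.

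Of 10 osteoclast markers 9 were tested and all 9 fell, against 7.28% of all tested genes. The summed level of the 10 was 778 to 833 FPKM with DMSO and 449 to 467 FPKM with DASA-58. Fcgr3 and the osteoclast markers thus moved in opposite directions, and the part of the osteoclast markers in the difference of Fcgr3 was not tested. Of 9 neutrophil markers 7 were tested and 4 fell (S100a8, S100a9, Camp and Ngp), 57.1% against 7.28% of all tested genes. The 9 summed to 174 to 177 FPKM with DMSO and 137 to 143 FPKM with DASA-58. The defining marker Ly6g was at most 0.0583 FPKM in any library.

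B cells carry Fcgr2b, and their markers were near 0. Pax5 had no row and Ms4a1 was at 0 in all DMSO libraries. The summed level of the 7 markers was 3.56 to 4.35 FPKM with DMSO and 4.34 to 5.54 FPKM with DASA-58. Of 3 tested members 1 (Cd22) was higher, against 4.24% of all tested genes. NK cells carry Fcgr3, and the 8 NK and T cell markers summed to 0.566 to 1.10 FPKM and 0.688 to 0.900 FPKM, all under the filter of 1 FPKM. The 7 mast cell and basophil markers summed to no more than 0.742 FPKM in any library and the 7 dendritic cell markers to no more than 0.740 FPKM. Of 7 stromal and endothelial markers Col1a1 and Col1a2 were tested and did not pass, with a summed level of the 7 of 32.7 to 35.2 FPKM and 33.6 to 34.4 FPKM.

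The genes around the Fc gamma receptors were taken from lists covering 110 genes, of which 94 were tested, 8 were higher (8.51%, against 4.24% of all tested genes), 10 were lower (10.6%, against 7.28%) and 76 did not pass. The median log2 difference of the tested genes was -0.01, against -0.03 over all tested genes, and 46 of 94 were positive. Without DMSO 1, DASA-58 2 or DASA-58 3 the higher count was 5, and the lower count was 6 without DMSO 1, DASA-58 1 or DASA-58 3 and 5 without DASA-58 2. With voom weights 18 were higher and 13 lower of 87, where 642 were higher and 1142 lower of all 9580 genes of that fit.

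Among other receptors that signal through Fcer1g, 6 of 7 were tested, 3 were higher (50.0%, against 4.24% of all tested genes) and 2 were lower (33.3%, against 7.28%). Clec4n (Dectin-2, a receptor for fungal mannans) rose from 60.1 ± 1.75 to 110 ± 1.75 FPKM, a log2 difference of 0.87 with an adjusted p of 8e-06 (limma, Benjamini-Hochberg). Clec4d, a related C-type lectin receptor, rose from 399 ± 9.15 to 528 ± 11.4 FPKM, a log2 difference of 0.40, and Clec4a1 rose by 0.11. Oscar, the osteoclast-associated receptor for collagen, fell by 0.68 on the log2 scale, from 3.66 ± 0.596 to 1.89 ± 0.128 FPKM, with an adjusted p of 0.0048 (limma, Benjamini-Hochberg). Clec4e (Mincle, a receptor for mycobacterial glycolipid) fell by 0.33. Receptors that share the gamma chain with Fcgr3 therefore differed in direction in these libraries.

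Of 11 other Fc receptor and Fc receptor-like genes, 5 had no row (Fcer1a, Fcer2a, Fcamr, Fcmr and Pigr) and 4 were under the filter. Of the 2 tested genes 1 was higher (50.0%, against 4.24% of all tested genes) and 0 were lower (against 7.28%). Fcrls, an Fc receptor-like scavenger receptor of macrophages and microglia, measured 3.20, 4.43 and 3.86 FPKM with DMSO and 6.10, 5.86 and 5.78 FPKM with DASA-58. Its mean with DASA-58 was 154% of that with DMSO, and its log2 difference was 0.53 with an adjusted p of 0.0097 (limma, Benjamini-Hochberg). Fcrl1 had a log2 difference of 0.20 and did not pass.

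Of the genes of activating signaling, 27 of 32 were tested, 1 was higher (3.70%), 2 were lower (7.41%) and 24 did not pass, with a median log2 difference of -0.02. Both shares were near those of the whole table, 4.24% and 7.28%. Lyn, a Src family kinase that phosphorylates both kinds of motif, rose from 40.0 ± 1.30 to 45.8 ± 0.688 FPKM (log2 difference 0.19). Src fell by 0.55 on the log2 scale, from 22.7 ± 0.812 to 15.2 ± 0.627 FPKM, with an adjusted p of 0.00034 (limma, Benjamini-Hochberg). Lcp2, the adaptor SLP-76, fell by 0.15.

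Of the 13 genes of inhibitory signaling, all tested, 0 were higher and 1 was lower (7.69%) by limma with Benjamini-Hochberg adjustment. Over all tested genes the shares were 4.24% and 7.28%. The counts were 0 and 1 at an unadjusted p under 0.05, where 2878 of the 10965 tested genes had a smaller p, in either direction, than Fcgrt (unadjusted p = 0.044, limma). With voom weights over 12 of them they were 0 and 1 after adjustment, against 642 higher and 1142 lower of all 9580 genes. The median log2 difference was -0.03. The gene that fell was Dok3, an adaptor that restrains signals of this kind, from 55.0 ± 2.31 to 48.7 ± 1.70 FPKM (log2 difference -0.17). Inpp5d, which encodes the phosphatase SHIP that the ITIM of Fcgr2b recruits, had means of 42.6 and 42.7 FPKM and an adjusted p of 0.96 (limma, Benjamini-Hochberg).

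Among 22 tested genes of actin remodeling during engulfment, 1 was higher (4.55%) and 2 were lower (9.09%), again near the 4.24% and 7.28% of the whole table. Marcks, a substrate of protein kinase C at the membrane, rose from 48.4 ± 2.57 to 63.2 ± 0.217 FPKM (log2 difference 0.38). Scin, an actin-severing protein, fell by 0.71 on the log2 scale and Myo10, an unconventional myosin, by 0.48.

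**Figure D5:**
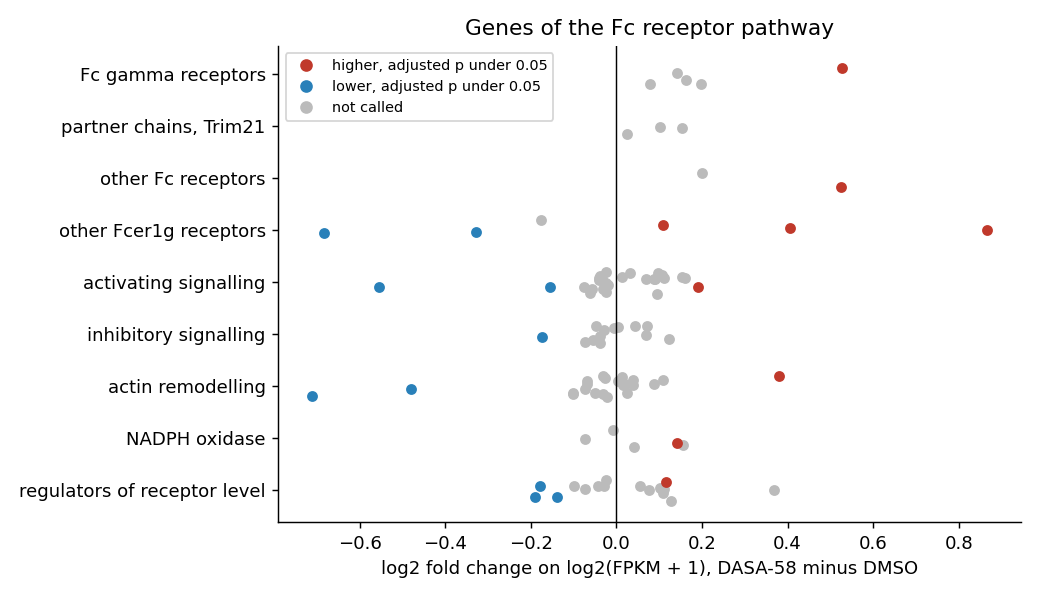
Log2 fold change on log2(FPKM + 1), DASA-58 minus DMSO (horizontal axis), of every tested gene of the lists around the Fc gamma receptors, with 1 point per gene. Red points (higher) and blue points (lower) passed an adjusted p of 0.05 in limma, and of the 94 genes below the receptors' own row 8 are red, 10 are blue and 76 are grey.

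Receptors and factors known to set the levels of Fc gamma receptors, 16 genes all tested, included 1 higher (6.25%) and 3 lower (18.8%). Of all tested genes 4.24% were higher and 7.28% lower. Ifngr1, a chain of the interferon gamma receptor, rose from 122 ± 2.07 to 132 ± 2.53 FPKM (log2 difference 0.12). Jak2, a kinase of that receptor, fell by 0.19 on the log2 scale, and Irf1, an interferon-induced factor, by 0.18. Spi1, which encodes the myeloid factor PU.1, fell by 0.14, from 256 ± 5.01 to 232 ± 2.96 FPKM. Of the genes of the interferon gamma axis that passed, 1 was higher and 2 were lower, while Fcgr3 rose and Fcgr1 did not pass.

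PU.1 and the interferon gamma pathway are known regulators of these genes, and the promoters of the receptors were searched for the core of PU.1 sites (GAGGAA, or TTCCTC on the other strand) and for the interferon gamma-activated element (TTCNNNGAA, which reads the same on both strands). The windows run from 250 bases before to 50 bases after the RefSeq start, in build GRCm38.p6, and the motifs do not overlap each other in them. The core of PU.1 was found 1 time each in Fcgr1, Fcgr3 and Fcgr4 and 0 times in Fcgr2b, Fcgrt and Fcer1g, and 28.3% of all 32851 promoter windows hold it. The interferon element was found in Fcgr1 alone of these genes, and 8.3% of all windows hold it. The windows of Fcgr3 (chr1:171059354-171059653), Fcgr1 (chr3:96293920-96294219) and Fcgr2b (chr1:170976022-170976321), all on the minus strand, are printed to set the receptor that rose beside the activating receptor that also holds the interferon element and the inhibitory receptor that holds neither motif, with the motifs in capitals.
Fcgr3 promoter: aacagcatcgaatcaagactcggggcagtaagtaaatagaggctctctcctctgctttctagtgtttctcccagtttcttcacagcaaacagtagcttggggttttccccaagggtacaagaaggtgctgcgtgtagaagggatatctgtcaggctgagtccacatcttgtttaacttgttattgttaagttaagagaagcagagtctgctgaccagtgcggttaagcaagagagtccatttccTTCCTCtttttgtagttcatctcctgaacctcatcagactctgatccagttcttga
Fcgr1 promoter: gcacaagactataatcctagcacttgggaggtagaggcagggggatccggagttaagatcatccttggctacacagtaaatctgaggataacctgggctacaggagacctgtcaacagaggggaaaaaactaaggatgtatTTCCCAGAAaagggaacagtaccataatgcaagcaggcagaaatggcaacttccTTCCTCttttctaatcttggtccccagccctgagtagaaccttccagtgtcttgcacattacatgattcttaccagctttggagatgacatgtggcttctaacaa
Fcgr2b promoter: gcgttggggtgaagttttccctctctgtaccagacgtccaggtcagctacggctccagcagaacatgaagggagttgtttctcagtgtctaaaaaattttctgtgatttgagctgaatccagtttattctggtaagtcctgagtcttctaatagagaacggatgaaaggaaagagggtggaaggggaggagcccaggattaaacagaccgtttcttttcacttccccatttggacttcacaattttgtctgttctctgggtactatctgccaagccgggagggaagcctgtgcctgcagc
The activating receptors with the PU.1 core included Fcgr3, which rose, and Fcgr1 and Fcgr4, which did not pass the test. A match is a description of these letters and not a bound site.

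The nearest genes on the chromosomes were also examined. Of the 3 nearest tested genes on each side of the cluster of Fcgr2b, Fcgr4 and Fcgr3 (Gm2962, Dusp12 and Atf6 on the one side, Sdhc, Pcp4l1 and Tomm40l on the other), 0 of 6 passed limma with Benjamini-Hochberg adjustment or the fit with voom weights, 2 of 6 had an unadjusted p under 0.05 (Pcp4l1 and Tomm40l), and their log2 differences ran from -0.26 (Gm2962) to 0.25 (Pcp4l1, adjusted p = 0.078). Near Fcgr1, Txnip fell by 0.21 and Lix1l by 0.15 on the log2 scale, and near Fcgrt, Aldh16a1 fell by 0.15. Of the 12 neighbours of Fcgr1 and Fcgrt 0 were higher in limma, adjusted or not, or with voom weights. After adjustment in limma 2 of 6 near Fcgr1 and 1 of 6 near Fcgrt were lower, against 7.28% of all tested genes. At an unadjusted p under 0.05 the lower count was 3 of 6 at each locus. For comparison, 2878 of the 10965 tested genes had a smaller p, in either direction, than Fcgrt (unadjusted p = 0.044, limma). That background, and not the 7.28% of adjusted calls, applies to the unadjusted counts at these loci, the cluster included.

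The profiles over the 6 libraries that were most like each receptor are given as Pearson correlations of log2(FPKM + 1), as a description, since the 6 points share 2 conditions and their libraries. For Fcgr3 they were Smpdl3a, a phosphodiesterase related to acid sphingomyelinase (r = 0.998), Gsta3, a glutathione transferase (r = 0.998), and Mpp1, a membrane scaffold protein (r = 0.997). Gsta3 went from a mean of 8.44 to 16.4 FPKM and Smpdl3a from 180 to 230 FPKM. For Fcgr4 they were the chemokine gene Cxcl16 (r = 0.989), Cr1l, a regulator of complement (r = 0.987), and C5ar1, the receptor for the complement fragment C5a (r = 0.984).

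For Fcgr1 the most alike profiles were those of Stx12 (r = 0.993), Tpm3 (r = 0.987) and Xylt1 (r = 0.986), and for Fcgr2b those of Mxd3 (r = 0.990), Zbtb14 (r = 0.990) and AB124611 (r = 0.982). For Fcgrt they were Gmfg (r = 0.991), Gm3571 (r = 0.984) and Rnf227 (r = 0.980). Between the receptors themselves r ran from 0.469 (Fcgr4 with Fcgr2b) to 0.885 (Fcgr3 with Fcgrt), so no receptor had another receptor among its 3 most alike profiles.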

How the data were processed

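RNA-seq of BMMs was analysed from 1 table of FPKM deposited by the authors, with 6 columns matched to the sample titles (0 left unmapped). The submitters' processing notes name HISAT2 2.1.0, HTSeq 0.6.0 and the build mm8. The use of strand is not given in the sources used here. The gene lengths behind the FPKM matched GENCODE mouse release 21 (GRCm38), whose annotation was used for loci. With these lengths, 21437 of 23504 genes (91.2%) gave whole fragments in all libraries within 0.05 fragment, all 5 receptors included. The recovered depth was 18209396 to 18853041 fragments with DMSO and 18191560 to 18968556 with DASA-58. The table lists 0 genes at 0 in every library. A symbol was found for 23455 identifiers, and 49 had none.

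The 10965 genes whose mean reached 1 FPKM were compared on log2(FPKM + 1) with limma 3.58.1 in R 4.3.3 (lmFit, eBayes with a trend, Benjamini-Hochberg over these genes, threshold adjusted p under 0.05), using all 6 libraries and no covariate. A difference on this scale understates the change of low genes. Ratios were tested with an exact permutation test (SciPy 1.17.1). The fit was tested on simulated data. Sequences came from GENCODE transcripts and RefSeq promoters, matched by symbol for all 5 receptors and Fcer1g. The receptors, lists and tests were chosen with earlier results of these data known. Named genes were the receptors and their partners, the called members of each pathway list with the 3 largest differences in each direction, the 3 most correlated genes and the 3 nearest tested genes on each side. Inpp5d and Fcrl1 were named outside this rule, after their values were seen. Some genes of the lists are counted but not reported here by name. Alternatives were other pseudocounts, filters, scalings and variance models, the replicate number as a block, each library left out and, chosen after seeing the data, voom weights on the fragments and ratios without a pseudocount.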

Additional observations from a re-analysis of the deposited data

How the results depend on the processing

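Fcgr3 stayed past the threshold in all 17 alternatives, with a log2 difference of 0.51 to 0.56 and an adjusted p of 5.4e-13 to 0.020 in limma. Fcgr1 (0.20) passed with a filter at a mean of 5 FPKM (0.20, adjusted p = 0.049), with the replicate block (0.20, adjusted p = 0.043), with voom weights, chosen after seeing the data (0.21, adjusted p = 0.0071), and without DMSO 3, and ranged from 0.16 to 0.26 with 1 library left out. Fcgr2b (0.16) passed with the filter at 5 FPKM (0.16, adjusted p = 0.0497), with voom weights (0.17) and without DMSO 2, in a range of 0.12 to 0.20. Fcgr4 passed without DASA-58 1, in a range of 0.10 to 0.20. Fcgrt passed in none of the 17 (0.06 to 0.11). Libraries with the same replicate number did not deviate together from their group means (r -0.02, 0.02 and -0.02). With 3 libraries in each group this cannot show whether they were paired. Under the replicate block Fcgr1 and B2m were the receptor and partner genes whose call changed. The ratio of Fcgr1 to Fcgr2b reversed without DMSO 2 (-0.0292) and without DASA-58 2 (-0.0028), in a range of -0.0292 to 0.11, and that of Fcgr4 without DMSO 1 (0.0074) and without DASA-58 1 (0.0673), in a range of -0.0882 to 0.0673. The count of 798 lower genes became 372 without a filter, 504 with median centring, 515 without a variance trend, 314 without variance shrinkage and 385 to 604 with 1 library left out. The count of 465 higher genes became 257 without a filter, 227 without shrinkage and 273 to 373 with 1 library left out. With voom weights 1142 of 9580 genes were lower and 642 were higher. Lower genes were 63.2% of the calls, 49.5% after quantile normalization and 45.8% after median centring, while the median of all tested genes stayed within 0.05 of 0 in log2. In the pathway lists the 10 lower genes became 5 without shrinkage and 5 to 8 with 1 library left out, and the 8 higher genes became 5 without a filter, without a trend or without shrinkage, 18 with voom weights and 5 to 9 with 1 library left out. The cause of these changes in the counts was not tested. Of the 5 receptors, Fcgr4 had the fewest fragments, 601 in its lowest library.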
